A study of Mus musculus with 11 samples.

Results

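The data described here are the huntingtin (HTT) ChIP-seq peaks of a 7 Mb interval of mouse chromosome 1, from 84 to 91 Mb in build mm9. The interval was chosen because several of its windows were dense in peaks that recurred between libraries. Its members are the peaks whose summits lie in it. They number 6038 of the 1298473 peaks on the autosomes, X and Y over 7 lists. The flanks used for comparison had the same length. The lower flank, from 77 to 84 Mb, held 3468 peaks, and the upper flank, from 91 to 98 Mb, held 3924. Because recurrence chose the interval, its recurrence and density against the flanks are given as a description with no test, whereas genotype played no part in the choice.

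Huntington's disease is caused by a lengthened glutamine tract in HTT, and it affects the striatum more than other brain regions. The Q111/+ mice were male heterozygotes with 1 knock-in Htt allele carrying an expanded CAG repeat, and the WT mice were their male littermates with normal alleles. Both groups were on a B6 background and aged 4 months. The labels name no experimental treatment. Chromatin from formaldehyde-fixed striatum of 4 Q111/+ and 3 WT libraries was precipitated with an antibody against HTT. Both genotypes carry a normal Htt allele, and tissue lacking HTT was not analysed here. The series also has 4 libraries of input DNA, which were not used here. A peak list holds no expression values, so the striatal origin was not checked against marker genes.

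HTT is a large scaffold protein, found mostly in the cytoplasm and also in the nucleus, and it is not known as a sequence-specific DNA-binding factor. Sp100, Sp110 and Sp140, for which the interval was named, encode interferon-inducible proteins of nuclear bodies with domains that read chromatin. In the mouse, Sp100-related sequence on chromosome 1 forms a long cluster of tandem copies whose number differs between mouse populations. Reads from near-identical copies are hard to place in a genome.

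The lists held from 88920 to 495334 peaks, a 5.57-fold range, and every WT list was longer than every Q111/+ list. Sequencing depth is unknown. Nothing in the labels assigns each library to an animal of its own, and p-values here reflect the variation among 7 samples, some of which may be technical. The list names carry the prefixes DB (Q111/+ replicates 1 and 2, WT replicate 1) and JP (Q111/+ replicates 3 and 4, WT replicates 2 and 3), whose meaning the labels do not give. WT replicate 1 had the longest list, and results that rest on it are also given without it.

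The peaks of the interval were gathered in 3 short stretches around a long span without any peak. A stretch was defined, after seeing the data, as at least 20 merged regions that were each called in at least 4 of the 7 libraries and lay within 20 kb of the next. A merged region is a run of overlapping peaks from any of the lists, and one called in at least 4 libraries is termed recurrent below. The first stretch ran from 84950103 to 85343617 (393515 bp), the second from 87343718 to 87556881 (213164 bp) and the third from 90107927 to 90205392 (97466 bp). Together they made up 10.1% of the interval. The genome held 46 stretches by this definition. Those on chromosome 1 were these 3, and neither flank held one.

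The 3 stretches held 478, 390, 421 and 454 peaks in Q111/+ replicates 1 to 4. In WT replicates 1 to 3 they held 564, 572 and 596. These were 65.3% to 76.8% of the interval's peaks in the Q111/+ lists, and 32.0%, 61.8% and 67.8% in WT replicates 1, 2 and 3. Peak density in the stretches was 554 to 679 per Mb in Q111/+ and 801 to 846 per Mb in WT. That was 3.64 times the mean density of the flanks in WT replicate 1, 8.80 times in WT replicate 2, and 14.6 to 16.4 times in the other 5 libraries. Over the rest of the interval, including the peak-free span described next, density was 0.537 to 0.936 times the mean of the flanks. Over the 4.30 Mb left without that span it was 1.27, 1.37, 0.787 and 0.862 times the mean of the flanks in Q111/+ replicates 1 to 4, and 1.27, 0.893 and 1.13 times in WT replicates 1 to 3. Libraries of both genotypes thus lay on either side of the flank level there.

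Between the first and the second stretch lay a span of 2000100 bp, from 85343618 to 87343717, with no peak in any of the 7 lists. It took up 28.6% of the interval and was the longest such span between peaks on chromosome 1, where the next measured 406875 bp and 137944 bp. The whole genome held 3 spans of this length or longer. Peaks resumed at once on either side of it. The last peak before the span lay within 516 bp of it in every library. The first peak after it lay within 667 bp in 6 libraries and 2113 bp away in Q111/+ replicate 2. No mm9 sequence was used here, so whether this span holds determined sequence was not tested.

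**Figure D1:**
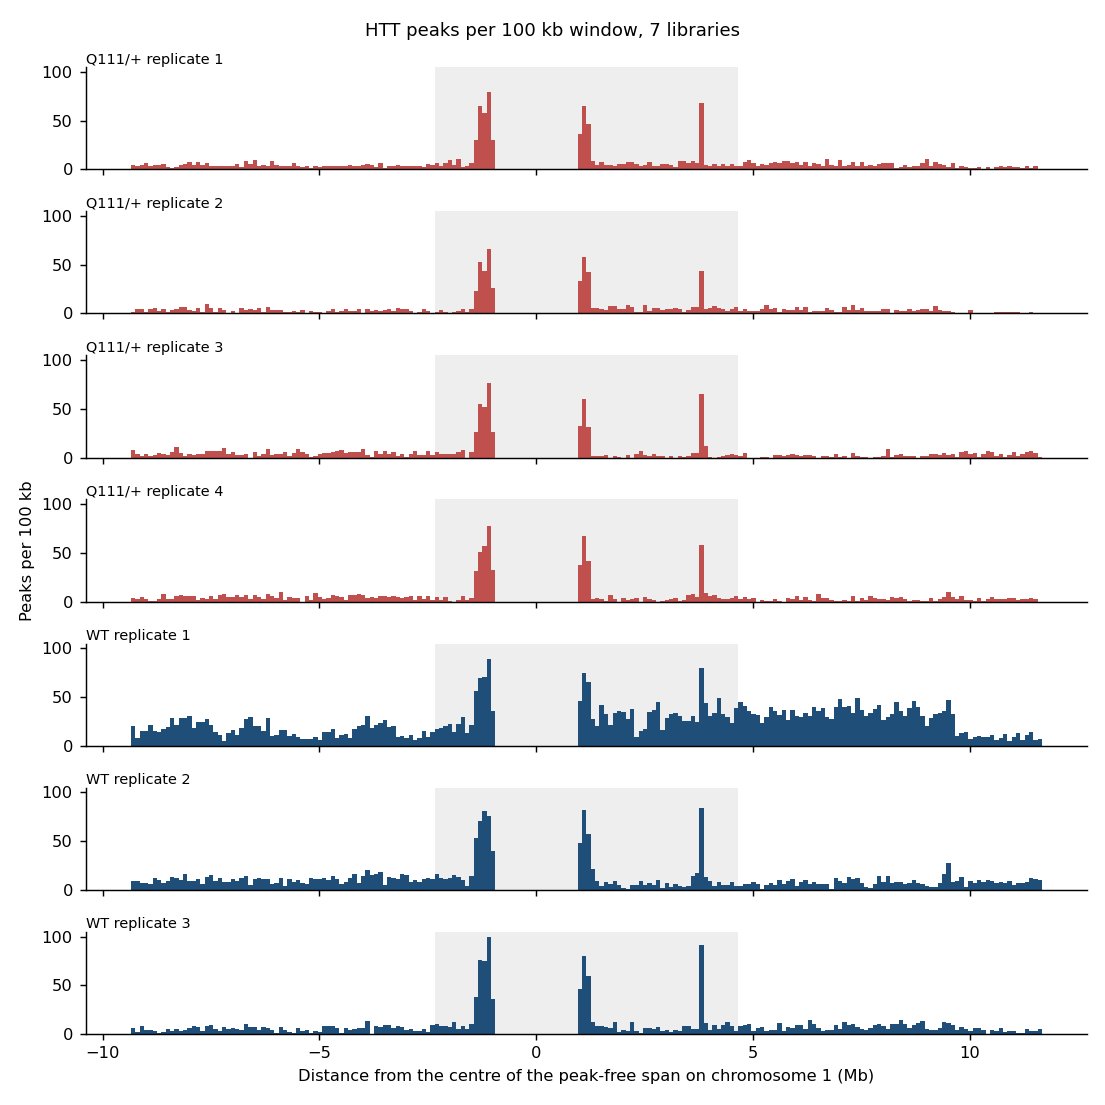
Peaks per 100 kb window (vertical axes) against distance from the centre of the peak-free span in Mb (horizontal axis), in 1 panel for each of the 4 Q111/+ (red) and 3 WT (blue) libraries, with the 7 Mb interval shaded. All 7 panels show the same 3 narrow blocks and the same gap, while WT replicate 1 also has many peaks across both flanks.

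The profile of peaks per window shows that the blocks stood at the same places in both genotypes, and that libraries differed mainly in how many peaks lay between and around them. The 3 windows of 100 kb with the most recurrent regions were 85200001 to 85300000 with 51, 85000001 to 85100000 with 46 and 87400001 to 87500000 with 44. The first of these held 80, 66, 77 and 78 peaks in Q111/+ replicates 1 to 4 and 89, 76 and 100 in WT replicates 1 to 3, so the genotypes overlapped there. The second held 65, 53, 55 and 51 against 70, 71 and 76. The third held 65, 58, 60 and 67 against 75, 82 and 80. In these latter windows every WT library had more peaks than every Q111/+ library. Nothing marked the ends of the 7 Mb interval itself. In the 100 kb windows on either side of its lower edge the lists held 0 to 17 peaks each, and on either side of its upper edge 2 to 45, with no recurrent region in any of these 4 windows.

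Nearly all recurrent regions of the interval lay in the stretches, as their definition favours. Over the interval 2745 merged regions were formed, of which 337 (12.3%) were recurrent and 133 were called in all 7 libraries. Over the genome 0.95% of 1075255 regions were recurrent and 0.13% were called in all 7. The stretches held 331 of the 337 recurrent regions and all 133 of the regions called in every library. Of their 562 regions 58.9% were recurrent, with 60.5% in the first stretch, 55.0% in the second and 62.7% in the third. Outside the stretches 6 of 2183 regions (0.275%) were recurrent, beside 10 of 2950 (0.339%) in the lower flank and 13 of 3338 (0.389%) in the upper flank. These shares chose the interval and the stretches, so nothing is read from their difference.

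**Figure D2:**
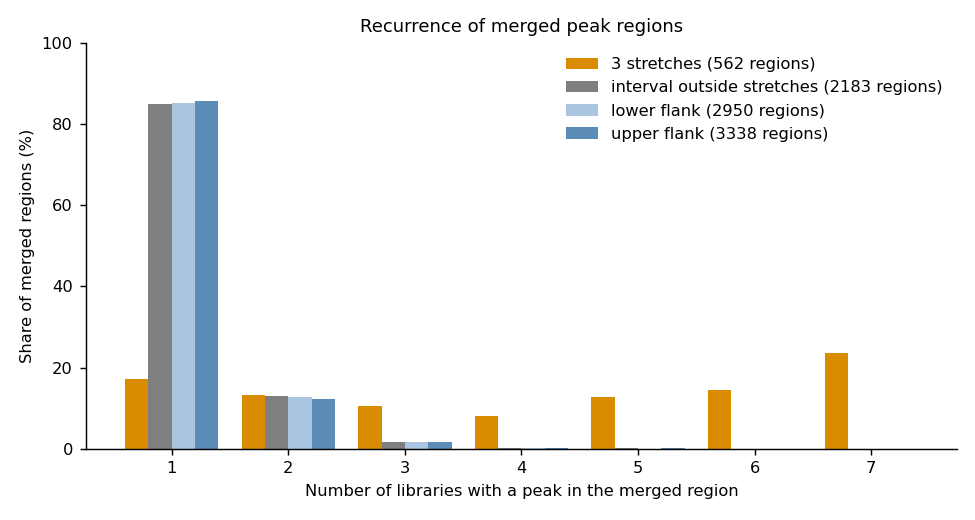
Share of merged regions in percent (vertical axis) by the number of libraries with a peak in the region (horizontal axis), for the 3 stretches, the interval outside them and both flanks. Outside the stretches and in the flanks about 85% of the regions were called in a single library, whereas 23.7% of those in the stretches were called in all 7.

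Recurrent regions followed each other closely along the stretches. The median distance between the centres of neighbouring recurrent regions was 1469 bp in the first stretch, 1596 bp in the second and 2054 bp in the third. They covered 53.5%, 52.2% and 73.4% of the stretches. In single libraries, peaks covered 17.8% to 25.2% of the stretches in Q111/+ and 34.4% to 37.5% in WT, against 0.642% to 7.16% of either flank. The regions called in all 7 libraries were broad, with a median width of 1556 bp, where such regions measured 1272 bp over the genome, and the summits inside them were spread out. The 7 strongest peaks of such a region had summits spanning a median of 881 bp (quartiles 538 to 1522 bp). Of these summits 46.5% lay within 100 bp of the region's median summit.

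A peak in the stretches rested on more fragments than a peak elsewhere in the interval, and also on a higher local background. Whole fragments at the summit, and the local background against which the caller tested them, were recovered from the deposited fold and p-values. Every peak of the interval and flanks gave a whole fragment number within a tolerance of 0.02 in −log10 p. At a wrong scale 0.103% to 19.9% did. The median number of fragments at a summit was 11, 11, 14 and 14 in the stretches in Q111/+ replicates 1 to 4, and 12, 12 and 14 in WT replicates 1 to 3. Outside the stretches it was 5 in 6 libraries and 4 in WT replicate 2, and in the flanks it was 4 or 5. Peaks with at least 8 fragments made up 85.4% to 96.7% of those in the stretches and 1.13% to 7.87% of those outside them.

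The local background is the number of fragments that the caller expected at a position. Its lowest value among a library's peaks in the interval and flanks is termed the floor of that library. Whether the caller took the local background from the HTT library itself or from input DNA is not stated in the labels. Its median in the stretches was 4.03, 3.98, 5.44 and 5.25 fragments in Q111/+ replicates 1 to 4 and 3.34, 3.78 and 4.53 in WT replicates 1 to 3. Divided by the floor of the same library, this was 3.00, 3.07, 3.29 and 3.33 in Q111/+ and 2.92, 3.12 and 3.14 in WT. The genotypes therefore overlapped, and the background of the stretches stood at about the same multiple of the floor in each library. Outside the stretches the median stayed at 1.00 to 1.03 times the floor. Of the peaks in the stretches 97.0% to 99.3% had a background above the floor, against 36.2% to 64.4% of the peaks elsewhere in the interval.

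**Figure D3:**
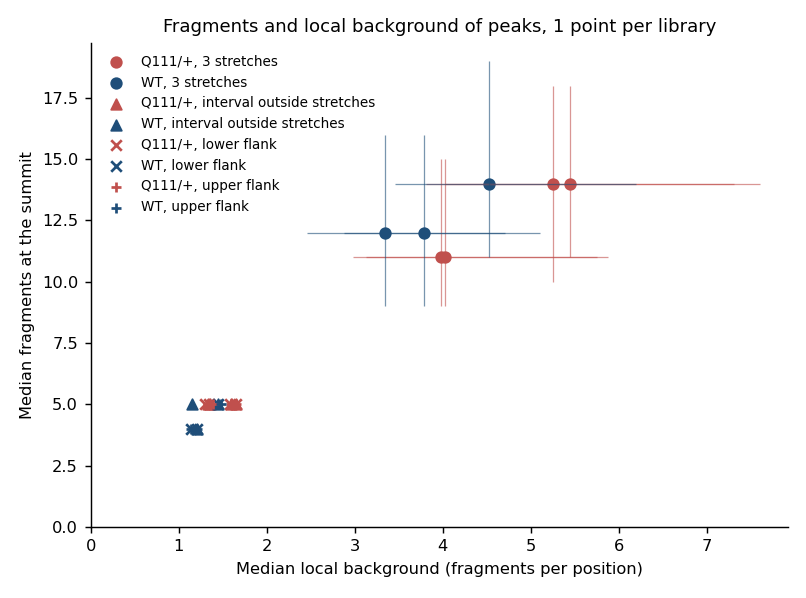
Median fragments at the summit (vertical axis) against median local background in fragments per position (horizontal axis), 1 point per library and part of the chromosome, with lines from the lower to the upper quartile of the peaks in the stretches. The stretches lie at 11 to 14 fragments over a background of 3.34 to 5.44, and all other points lie at 4 or 5 fragments over a background under 2.

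The background varied along the first and second stretches, which border the peak-free span and were profiled in steps of 50 kb. The third was not profiled. Going back from the span, the median background over the libraries was 2.83, 5.27, 2.74, 2.92, 3.14, 4.22, 2.38 and 2.49 times the floor. Going forward from the span it was 2.81, 2.22, 3.44 and 4.68 times. It was 1.73 times in the next step, 200 to 250 kb away, most of which lies past the end of the second stretch. The highest step before the span, 50 to 100 kb from it, ranged over the libraries from 4.86 to 5.35, and the highest step after it, 150 to 200 kb away, from 4.40 to 4.76. Both ranges lay above those of the neighbouring steps, while other steps overlapped, such as 200 to 250 kb before the span (2.52 to 4.30) and 250 to 300 kb before it (3.12 to 4.41).

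Relative to this background, the typical peak of the stretches stood lower in each of the Q111/+ lists than in any of the WT lists. The authors' fold enrichment of a peak is its own value within its list, so medians are given side by side without a test. In the stretches the median fold was 2.63, 2.59, 2.43 and 2.53 in Q111/+ replicates 1 to 4 and 3.45, 3.10 and 3.02 in WT replicates 1 to 3. Outside the stretches it was 3.38, 3.31, 2.78 and 2.86 against 3.19, 2.99 and 3.12. The groups did not overlap in the stretches and overlapped outside them. Recovered fragments over background are computed from that fold, so a nearly equal order was fixed in advance and adds no support. Their median was 2.61 ± 0.0869 (SD, n = 4) in Q111/+ and 3.31 ± 0.224 (SD, n = 3) in WT in the stretches. Outside them it was 3.36 ± 0.335 and 3.42 ± 0.104. Every WT list was also longer than every Q111/+ list, and the part of list length in this order was not tested. Whether the genotypes differed more in the stretches than outside them was not tested either.

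The genotype comparison asked whether the mutant and the WT striatum differed in how much of their HTT peak set fell in the interval. No difference in that share was detected. Peaks of the interval made up 0.653%, 0.671%, 0.518% and 0.542% of the lists in Q111/+ replicates 1 to 4 and 0.356%, 0.372% and 0.640% in WT replicates 1 to 3. WT replicate 3 lay among the Q111/+ libraries and the other WT libraries below them. The log2 ratio of Q111/+ over WT was 0.43 (two-sided exact permutation test over the 35 splits of 7 libraries, p = 0.143, Benjamini-Hochberg adjusted over 8 tests 0.229). With all libraries 0.0286 is the smallest p this design allows. The share of the lower flank gave a log2 ratio of 0.18 (exact permutation p = 0.143, adjusted 0.229) and that of the upper flank -0.42 (exact permutation p = 0.2, adjusted 0.267).

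Set against its own flanks, the interval held 2.28, 2.43, 2.08 and 2.17 times the mean number of peaks of a flank in Q111/+ replicates 1 to 4. In WT replicates 1 to 3 the ratio was 1.14, 1.43 and 2.16. The log2 ratio of Q111/+ over WT was 0.55 (exact permutation p = 0.0571, adjusted 0.152), so this difference was not past the threshold. It was 1.04 among the DB lists and 0.27 among the JP lists. The share of each list's covered bases gave 0.37 (exact permutation p = 0.314, adjusted 0.359), with 1.01 among the DB and -0.02 among the JP lists. Median peak width in the interval was 244 ± 22.8 bp (SD, n = 4) in Q111/+ and 246 ± 1.76 bp (SD, n = 3) in WT (exact permutation p = 1). These shares moved with list length, and when each list was cut to its 88920 most significant peaks the log2 ratio of the interval's share was -0.20 (exact permutation p = 0.0857). That cut held every WT list to a stricter p than any Q111/+ list. No direction is therefore given for the share of the interval.

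In number rather than share, every WT library had more peaks than every Q111/+ library, both in the stretches and outside them. The ratio of group means, taken on the log scale, was 1.33-fold in the stretches (Q111/+ minus WT -0.41 on the log2 scale, exact permutation p = 0.0286, adjusted 0.114) and 2.80-fold outside them (-1.49, exact permutation p = 0.0286, adjusted 0.114). Neither passed after adjustment over the 8 tests, and the difference between these 2 ratios was not tested. Outside the stretches the lists held 249, 207, 127 and 146 peaks in Q111/+ replicates 1 to 4 and 1197, 354 and 283 in WT replicates 1 to 3. WT replicate 1 stood far above the others there and was the lowest of the WT libraries in the stretches. Without it the log2 difference was -0.85 outside the stretches and -0.43 in them. Within prefixes the WT excess in the stretches was 1.31-fold in DB and 1.34-fold in JP, and outside them 5.27-fold and 2.32-fold. With any single library removed, the exact permutation p-values of these counts ran from 0.0667 to 0.133, and the smallest p then allowed is 0.0667 or 0.1.

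**Figure D4:**
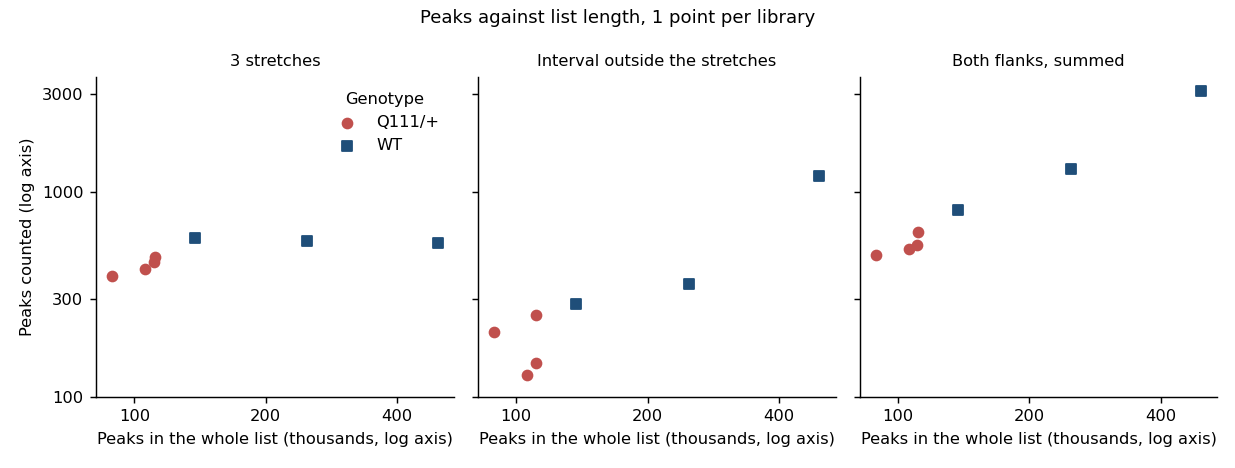
Peaks counted (vertical axes, log scale) against the number of peaks in the whole list (horizontal axes, in units of 1000, log scale), 1 point per library, in the 3 stretches, in the interval outside them and in both flanks. In the flanks and outside the stretches the longest list, WT replicate 1, has by far the highest count, whereas the 3 WT libraries lie between 564 and 596 in the stretches.

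Among the WT libraries the counts outside the stretches followed list length, and those in the stretches ran in the opposite order within a narrow range. Cut to 88920 peaks each, the lists held 435, 390, 419 and 440 peaks in the stretches in Q111/+ replicates 1 to 4 and 436, 505 and 548 in WT replicates 1 to 3. WT replicate 1 then lay among the Q111/+ libraries, and the log2 difference was -0.23 (exact permutation p = 0.0571). The cut left unequal limits. The lowest −log10 p kept was 4.83, 3.00, 3.18 and 3.51 in Q111/+ replicates 1 to 4. In WT replicates 1 to 3 it was 11.6, 6.98 and 5.72, so the WT lists were held to a stricter p. Outside the stretches the difference of the shortened lists was -0.12 (exact permutation p = 0.771). Restricting the stretches to peaks with a Poisson p of at most 0.001 computed on the recovered fragments left 179, 113, 175 and 186 peaks in Q111/+ and 366, 325 and 397 in WT. These were 28.97% to 41.57% of the stretch peaks in the Q111/+ lists and 56.82% to 66.61% in the WT lists. On the log2 scale Q111/+ minus WT was then -1.17 (exact permutation p = 0.0286, not adjusted and the smallest this design allows). The limit uses the same fragments and background whose median ratio in the stretches was already higher in every WT list. This order is thus not separate support. Outside the stretches 30, 22, 7 and 4 peaks met this limit in Q111/+ and 65, 7 and 26 in WT. These were 2.74% to 12.05% of the peaks there in the Q111/+ lists and 1.98% to 9.19% in the WT lists. The deposited p-values were reproduced with fragments and background both scaled up. On unscaled fragments most listed peaks of the interval did not meet a p of 0.001 in any library.

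Each of the 3 stretches showed the same order in number. The first held 260, 210, 232 and 246 peaks in Q111/+ replicates 1 to 4 and 304, 306 and 318 in WT replicates 1 to 3. The second held 147, 132, 119 and 143 against 175, 178 and 181, and the third 71, 48, 70 and 65 against 85, 88 and 97. Of the 46 stretches of the genome, 11 (23.9%) had more peaks in every WT than in every Q111/+ library, and these 3 were among the 11. Their log2 differences, Q111/+ minus WT, were between -0.52 and -0.39, inside the range of the other 43 stretches, which ran from -1.24 to 0.09 with a median of -0.32. Median fragments over background was higher in every WT library in all 3 and in 30 of the other 43, 71.7% of the 46 together. The log2 difference in fragments over background was between -0.40 and -0.28 in these 3, and between -0.39 and -0.0038 with a median of -0.22 in the other 43. The median fold of the peaks was higher in every WT library in 69.6% of the 46, these 3 included. Its log2 difference was between -0.39 and -0.26 here, and between -0.38 and 0.01 with a median of -0.20 elsewhere. The third stretch thus had the largest WT excess of the 46 in fold and in fragments over background. The latter is computed from the former, the margin was narrow and no test was made.

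By windows, the number of peaks was higher in every WT library in 21 of the 51 windows of 100 kb in the interval that held a peak, against 20.7% of the genome's 25679 windows. Among the 9 windows with 20 or more recurrent regions it was so in 8. Counted as a share of each list, 1 of the 51 windows did not overlap between the genotypes, against 4.48% of the genome's windows, and 0 of those 9. That 1 window was higher in every Q111/+ library, against 1.81% of the genome's windows, and 0 were higher in every WT library, against 2.67%. In the flanks 6 and 7 of 70 windows did not overlap. The single window, 88600001 to 88700000, lay outside the stretches and held 2 to 9 peaks per library, with the higher shares in Q111/+. Its name here follows from that count and was chosen after its values were seen.

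Every WT library called a larger share of the recurrent regions of the stretches than any Q111/+ library. Of the 331 recurrent regions of the stretches, Q111/+ replicates 1 to 4 called 81.9%, 75.2%, 76.7% and 81.0%, and WT replicates 1 to 3 called 91.2%, 91.2% and 93.7%. Of the 81 regions called in exactly 6 libraries, the missing library was a Q111/+ library 12, 13, 23 and 18 times and a WT library 5, 6 and 4 times. WT replicate 3 had the highest call rate with the shortest of the WT lists. The regions were chosen by these same calls, so the rates are a description. Every WT list was also longer than every Q111/+ list. The same rates were not computed over the genome's 10211 recurrent regions, so the order is not given as particular to the stretches.

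Regions that all 3 WT lists called and none of the Q111/+ lists did numbered 17 in the interval. That was 0.619% of its regions, against 0.321% over the genome. Of these 17, 9 lay in the stretches (1.60% of the regions there) and 8 outside (0.366%). Such a region is called in exactly 3 libraries, as were 95 of the interval's 2745 regions and 20501 of the genome's 1075255. The rule that chose the interval favours recurrent regions, so nothing is read from its higher share. Fewer lists have to call a region when a library is left out. Without WT replicate 1 the number was 40, 2.17% of the interval's regions against 1.48% over the genome. Without WT replicate 2 it was 94, 3.69% against 2.34%, and without WT replicate 3 it was 97, 3.74% against 3.29%. With lists of equal length it was 8, 0.507% against 0.0781%. The reverse, a call in the 4 Q111/+ lists and none in WT, occurred at 0 regions of the interval, against 0.0027% over the genome. Without Q111/+ replicate 1 it occurred at 2 regions, 0.0772% against 0.0161% over the genome, and without WT replicate 2 also at 2, 0.0784% against 0.00947%. In the regions called in every library, the authors' fold of the strongest peak was higher in every WT than in every Q111/+ library in 51 of 133 (38.3%), against 26.6% of the 1403 such regions of the genome. The opposite order was found in 0 of the 133, against 0.356% over the genome.

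The 10 regions ranked highest in all 7 lists by −log10 p lay in the first stretch (6) and the second (4), with none in the third. The highest was a region of 3849 bp in the second stretch, chr1:87486114-87489962. Its strongest peak had 31, 27, 35 and 35 fragments in Q111/+ replicates 1 to 4 and 48, 35 and 35 in WT replicates 1 to 3. The local background there was 9.21, 7.45, 10.3 and 11.6 fragments in Q111/+ and 9.58, 9.83 and 11.7 in WT. The authors' fold was 3.30 ± 0.245 (SD, n = 4) and 3.80 ± 1.02 (SD, n = 3). Its many fragments stood on a high background, its fold was moderate, and the genotypes overlapped.

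The region of highest fold among the 10 was the third, chr1:85300756-85302340 in the first stretch, 41277 bp before the peak-free span. It had fewer fragments, 14, 13, 18 and 13 in Q111/+ and 17, 12 and 19 in WT, over a background of 2.33, 2.28, 3.36 and 2.90 and of 1.97, 2.23 and 2.62. The authors' fold was 5.07 ± 0.609 (SD, n = 4) and 6.60 ± 1.5 (SD, n = 3), with WT replicate 2 at 5.04, inside the Q111/+ range. Its 7 summits lay within 203 bp. Closer still were those of the ninth region, chr1:87509846-87510931 in the second stretch, which lay within 49 bp of each other. In the other 8 regions the summits spanned 288 to 3092 bp.

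The fold did not overlap between the genotypes in 5 of the 10 regions, each time with every WT library higher. That order was found in 38.3% of the 133 regions called in every library here, and in 26.6% of the 1403 over the genome. The fourth region, chr1:85083853-85087749 in the first stretch, had 2.74 ± 0.241 (SD, n = 4) in Q111/+ and 3.57 ± 0.802 (SD, n = 3) in WT. The fifth, chr1:85265875-85268122 in the same stretch, had 3.28 ± 0.341 and 4.70 ± 1.15. In both, and in the sixth and seventh below, WT replicate 1 was the highest. The sixth, chr1:87517117-87522540 in the second stretch and the widest at 5424 bp, had 2.76 ± 0.279 and 4.03 ± 0.596. The seventh, chr1:85107273-85112659 in the first stretch, had 2.77 ± 0.0849 and 3.76 ± 0.191, the smallest spread of the 10 within Q111/+ and within WT. The ninth had 3.30 ± 0.574 and 4.58 ± 0.940, with 3.83 in Q111/+ replicate 1 just below 3.85 in WT replicate 3. The remaining regions, ranked 2, 8 and 10, chr1:85269908-85273855, chr1:87480713-87482865 and chr1:85258402-85260061, had mean folds of 2.72 to 3.12 in Q111/+ and 3.44 to 3.84 in WT.

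**Figure D5:**
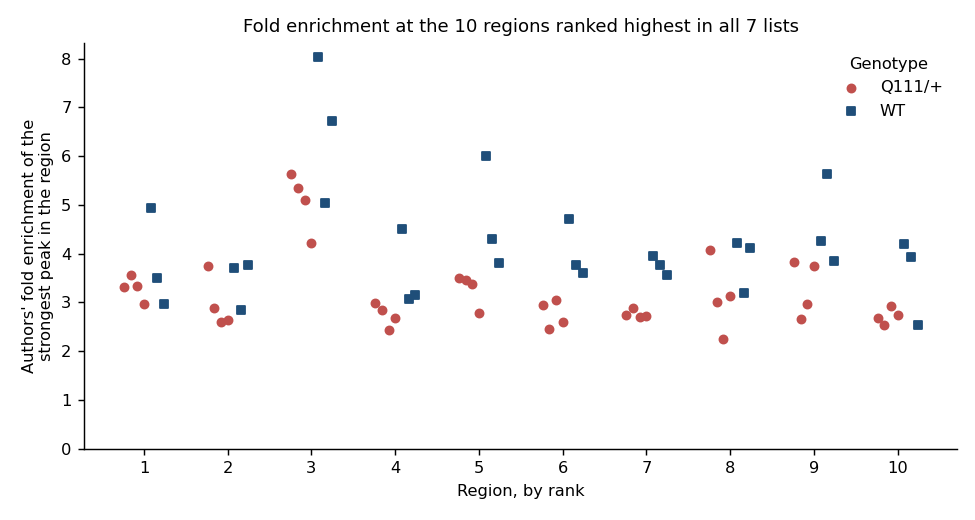
Authors' fold enrichment of the strongest peak in each library (vertical axis) at the 10 regions ranked highest in all 7 lists (horizontal axis, by rank), with Q111/+ libraries as red circles and WT libraries as blue squares. The third region reaches 8.04 in WT replicate 1, and in the seventh the Q111/+ libraries lie between 2.71 and 2.89 and the WT libraries between 3.57 and 3.95.

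Of the regions called in WT lists alone, the highest ranked was chr1:90133099-90133722 in the third stretch. Its strongest peaks had 13, 15 and 16 fragments in WT replicates 1 to 3 and an authors' fold of 4.05 ± 0.216 (SD, n = 3). The next 3 were narrower, 229, 298 and 478 bp, and lay in the first stretch at chr1:84982206-84982434, chr1:84956962-84957259 and chr1:85112962-85113439, with 10 to 18 fragments. The fifth, chr1:85053641-85054548, also lay in the first stretch and had 9, 8 and 6 fragments over the library floor, with folds of 7.02, 5.85 and 3.71. The fold of this region fell apart among the WT libraries while the first kept within 3.81 to 4.23. The local background at the absent Q111/+ peaks is not in the lists.

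The gene content of the stretches was not placed, because no mm9 annotation was used here. The order of genes could be read from RefSeq names on another build, GRCm38, in which all 27 genes listed for the interval were found on chromosome 1. There, 18 genes lie between Slc16a14, a transporter gene, and Sp110. Of them 9 are pseudogenes, 6 code for proteins and 14 carry provisional Gm names. Sp110, Sp140 and Sp100 follow one another, and Cab39, which encodes a partner of the kinase LKB1, comes after them. Which of these genes lies in which stretch, and whether the label of a repeat-rich Sp100 region holds for these coordinates, was not tested.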

How the data were processed

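The 7 deposited peak lists, 1 per library, are in narrowPeak format with coordinates in mm9. The submitters' processing notes list Bowtie2 2.2.5, MACS2 2.1 and mm9 without saying what each did. The list names show peaks called at a p of 0.001. The deposited p-values were reproduced on scaled-up fragments and background, so this limit does not hold for every peak on unscaled fragments. The use of input as a control is not stated in the labels. In the authors' files the fold column is a ratio of each peak to its local background, the significance columns are the −log10 p-value and the −log10 q-value, and the score column, a whole number, was not analysed. Within its own list, a peak was described, ranked or filtered by fold and −log10 values. Folds of the same region or stretch in different lists are set side by side as a description, with no test, and lists of different length bear on them. Depth is unknown, so no counting interval is given.

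A peak belonged to the interval or flank that held its summit. Peaks sharing at least 1 bp were joined into merged regions, which count as called by each library with a peak there. Fragments and local background at each summit were recovered, after seeing the data, as the whole number that at 1 scale per library gave both the deposited fold and −log10 p. Groups were compared by two-sided exact permutation over 35 splits, and within prefixes over 18, with Benjamini-Hochberg adjustment over 8 tests. The 6 tests of the interval and flanks were planned, and the 2 of peak numbers in and outside the stretches were added. The regions named are the 10 called in all 7 lists with the highest lowest percentile rank of −log10 p, up to 5 called in all libraries of 1 genotype alone, ranked likewise, and the 3 windows with most recurrent regions. The interval, the gene list and the comparisons were chosen with earlier results of these data known. The alternatives were shortened lists, stricter p and q, autosomes alone, another overlap or window size, each library left out, a replicate block and permutation within prefixes. Added after seeing the data were the fragment-based limits, covered bases, the removal of the stretches and other joining distances. No mm9 genome or annotation was used here, so no sequence is shown. The scripts were tested on simulated data. The software was Python 3.11.15 with pandas 2.3.3, numpy 2.4.6, matplotlib 3.10.9 and scipy 1.17.1.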

Additional observations from a re-analysis of the deposited data

Results flagged for a closer look

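Q111/+ replicate 2 stood apart from the other Q111/+ libraries in the number of stretch peaks with a Poisson p of at most 0.001 on the recovered fragments. It had 113 such peaks in the 3 stretches, and the other 3 libraries had 175 to 186. In the first stretch it had 58 against 100 to 104, and in the third 14 against 20 to 21. Its list was the shortest of the 7, with 88920 peaks. These 3 values came from 68 measures checked for a library far from the rest of its group, of which chance marks about 1 in 20.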

How the results depend on the processing

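Of 141 alternatives tried over 11 results, 94 left the direction and the side of the threshold as they were, or a count within 1.5 times. With a library left out, the replicate block or permutation within prefixes, no p could pass the threshold, whatever the data. For a tested result not past it, only the direction could change there. Part of the 94 was thus fixed in advance and is no measure of robustness. With lists of equal length the log2 difference between genotypes turned for the interval's share (-0.20), for the interval over its flanks (-0.10) and for the share of covered bases (-0.36), and the share of the interval without its 3 stretches was -0.18. The difference in median width was 4.83 bp without Q111/+ replicate 1 and 3.83 bp without Q111/+ replicate 2, within a range of -11.0 to 4.83 bp over the libraries left out.

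Here the threshold is the unadjusted p of 0.05, and neither count of peaks passed it after adjustment. With a library left out or permutation within prefixes, the design cannot reach this threshold for either count. The number of peaks in the stretches kept its direction in every alternative and missed the unadjusted threshold with lists of equal length (-0.23), within prefixes (-0.40, exact permutation p = 0.111) and with each library left out (-0.46 to -0.36), where the design cannot reach it. Outside the stretches it missed the threshold with lists of equal length (-0.12), a −log10 q of at least 2 (-1.40), permutation within prefixes (-1.81), the unscaled fragment p (-0.97), at least 8 fragments (-0.28) and each library left out (-1.89 to -0.85). Regions called by WT alone numbered 8 with equal lists (0.507% of the interval's regions, 0.0781% over the genome) and 20 to 97 over the libraries left out (0.767% to 3.74%, genome 0.371% to 3.29%). Regions called by Q111/+ alone numbered 1 at an overlap of at least 50% (0.0323%, genome 0.00248%) and 0 to 2 over the libraries left out (0% to 0.0784%, genome 0.00544% to 0.0161%). Windows without overlap numbered 3 of 51 with equal lists (5.88%, genome 2.62%), 0 of 11 at 500 kb (genome 3.57%) and 1 to 10 of 51 over the libraries left out (1.96% to 19.6%, genome 7.63% to 12.5%).

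With the replicate block the log2 difference was -0.43 in the stretches and -1.40 outside them (exact permutation p = 0.25, the smallest that 3 pairs allow). The replicate numbers share only a number, since same-numbered libraries correlated in their deviations at 0.50, -0.43 and -0.01 and not every library correlated best with its own number. With WT replicates 1 and 2, Q111/+ libraries of the same prefix correlated at 0.33 to 0.56 and those of the other prefix at -0.57 to -0.36. With WT replicate 3 the values lay between -0.01 and 0.01. The deviations were taken from the mean of each genotype. A library's covariances with those of the other genotype therefore cancel out, so the opposite signs between prefixes were in part fixed in advance. Read depth is unknown, and differences smaller than the spread between these 7 libraries were not detectable.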
